A study of Mus musculus with 6 samples.

Results

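The mRNAs of mitochondrial complex I were followed in mouse CD8+ T cells that had been exposed to itaconate. The genes were taken by name alone: every row of the gene tables whose symbol began with Nduf and did not contain "-ps", which gave 49 genes of 55487. Symbols of this kind stand for the nuclear-encoded subunits of complex I, its Nduf-named assembly factors, and a few relatives and copies that are set apart here. The itaconate group held 3 libraries of CD8+ T cells cultured with 5 mM itaconate for 48 h, and the control group held 3 libraries cultured with NaCl for the same time. All cells came from C57BL/6 mice with no genetic change named in the labels. The labels leave out whether the replicates stand for different mice or cultures. The p-values therefore measure spread among these libraries only, and that spread may be technical.

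Complex I, NADH:ubiquinone oxidoreductase, is the entry point of the mitochondrial respiratory chain. Its matrix arm takes electrons from NADH through a flavin and a row of iron-sulfur clusters to ubiquinone, and its membrane arm pumps protons. Nuclear genes encode the core subunits of the matrix arm and all accessory subunits, mitochondrial DNA encodes the core subunits of the membrane arm, and assembly factors help to join the modules without staying in the finished enzyme. Activated CD8+ T cells use complex I to regenerate NAD+ and to drive ATP synthesis. Itaconate is a dicarboxylic acid made from cis-aconitate in activated macrophages and is known as an inhibitor of succinate dehydrogenase, complex II of the same chain.

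Expected counts summed to between 18280217 and 23609543 in the itaconate libraries and between 20469874 and 31643408 in the control libraries. Levels below are CPM (counts scaled to library size with TMM factors), which serve to compare libraries for 1 gene, or TPM (counts per effective length, scaled within each library), which serve to compare genes. The 5 markers of CD8+ T cells summed to between 1504 and 1517 CPM with itaconate and between 1273 and 1370 CPM in control. Of these, Cd8a alone had groups that did not overlap (630 to 659 CPM with itaconate, 472 to 526 CPM in control). Groups overlapped for Cd3e, Cd3d, Cd8b1 and Trac. Cd4 lay between 2.0 and 5.79 CPM with itaconate and between 2.45 and 4.70 CPM in control. The 3 B cell markers summed to between 2.67 and 10.9 CPM with itaconate and between 5.01 and 9.24 CPM in control. The 4 myeloid markers summed to at most 2.62 CPM with itaconate and 1.02 CPM in control, and the 2 natural killer cell markers to at most 0.858 CPM with itaconate and 0.508 CPM in control. In bulk RNA, fewer cells of a type and less RNA per cell cannot be told apart.

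The upstream sequence of 4 genes is shown first, as examples of the fold changes described below. Ndufaf8 and Ndufaf1 were among the 3 largest positive fold changes, Ndufa11 had groups that did not overlap, and Ndufv3 had the most negative fold change. Each line gives 150 bases of the RefSeq promoter table (mouse build GRCm38.p6), from 120 bases before the start of the gene to 30 bases after it, 5′ to 3′ on the strand of the gene. Capitals mark matches to 3 motifs of factors known to bind promoters of respiratory genes, searched on both strands: GCATGCGC for NRF1, CCGGAAG for GABPA and AAGATGGCG for YY1.
Ndufa11, chr17:56717642-56717791, plus strand, NRF1 motif on both strands with overlapping matches: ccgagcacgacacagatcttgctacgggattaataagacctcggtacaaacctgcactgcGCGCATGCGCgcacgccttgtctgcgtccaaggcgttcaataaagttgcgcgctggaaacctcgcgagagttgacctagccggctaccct
Ndufaf1, chr2:119662805-119662954, minus strand, GABPA motif: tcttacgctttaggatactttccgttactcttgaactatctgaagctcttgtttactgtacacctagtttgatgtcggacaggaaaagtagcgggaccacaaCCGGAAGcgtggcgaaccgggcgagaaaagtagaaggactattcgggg
Ndufaf8, chr11:120098814-120098963, plus strand, GABPA motif and then YY1 motif: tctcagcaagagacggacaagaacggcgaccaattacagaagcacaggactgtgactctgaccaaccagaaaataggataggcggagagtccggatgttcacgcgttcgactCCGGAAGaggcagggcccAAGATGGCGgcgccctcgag
Ndufv3, chr17:31519995-31520144, plus strand, none of these letters in the window: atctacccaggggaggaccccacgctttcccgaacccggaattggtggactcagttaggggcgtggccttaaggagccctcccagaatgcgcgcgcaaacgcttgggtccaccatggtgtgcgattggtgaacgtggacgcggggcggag

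The table held windows of 250 bases before to 50 bases after the start for 40 of the 49 genes, in 42 windows. Genes with no entry included Ndufa11b, Ndufa2, Ndufa4l2, Ndufaf6, Ndufb4c, Ndufb9, Ndufs1 and Ndufs6b. The NRF1 motif stood in 5 of the 42 windows (11.9%), against 2.71% of all 32851 windows in the table. The GABPA motif stood in 6 (14.3%), against 8.86% of all windows. The YY1 motif stood in 6 (14.3%), against 1.40% of all windows, and all 6 matches lay on the strand of the gene, between 10 and 35 bases after the start. The windows with the YY1 motif belonged to Ndufa9, Ndufaf8, Ndufc1, Ndufs4, Ndufs6 and Ndufs7. Matches were not limited to genes with a positive fold change. Ndufaf4 (NRF1 motif) and Ndufs3 (GABPA motif) had log2 fold changes of -0.09 and -0.06. Ndufv1 and Ndufa10, at 0.16 and 0.08, had no match. Whether a motif went with the direction of the fold change was not tested. The matches describe letters in these windows and do not show binding.

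No gene of complex I passed the test for a difference between itaconate and control. Of the 49 genes, 46 had enough counts to be tested and 0 reached a Benjamini-Hochberg adjusted p under 0.05 by edgeR's quasi-likelihood test, against 12.0% of the 12350 genes tested (1487 genes). At an unadjusted p under 0.05 there were 13 of the 46 (28.3%), against 26.5% of all genes, and 12 of these 13 were higher with itaconate (26.1% of the 46, against 14.2% of all genes). DESeq2 and limma on log2(TPM + 1) also called 0 of them. The fitted fold change was above 0 for 41 of the 46 (89.1%), against 51.4% of all genes, and its median was 0.11 on the log2 scale, against 0.01 over all genes. Leaving out 1 library moved the median of the 46 genes to 0.16 when it was itaconate replicate 1, 0.06 when it was itaconate replicate 2, 0.04 when it was control replicate 1 and 0.18 when it was control replicate 3, and limma on log2(TPM + 1) gave 0.05, against -0.05 over all genes. Nduf genes are short, and among all tested genes with an effective length under 300, from 300 to 500 and from 500 to 1000 bases the shares above 0 were 63.6%, 66.6% and 64.7%, against 7 of 8, 15 of 17 and 10 of 11 Nduf genes of these classes. Calls were fewer among short genes: 2.93%, 6.41% and 9.55% of all genes in these length classes had an adjusted p under 0.05. The 12.0% over all genes was thus higher than the share among genes of these lengths. For 9 of the 46 genes (19.6%) all itaconate libraries had a higher CPM than all control libraries, against 16.8% of all genes. For 0 of the 46 all itaconate libraries were lower, against 14.4% of all genes. These 9 were Ndufa4, Ndufa10, Ndufa11, Ndufaf1, Ndufaf5, Ndufaf6, Ndufb4c, Ndufs8 and Ndufv1. In TPM the groups of Ndufa4, Ndufa10, Ndufs8 and Ndufv1 overlapped.

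The fold changes were narrowly bounded for most of these genes. The 95% interval of the fold change lay within 1.25-fold in both directions for 22 of the 46, within 1.5-fold for 42 and within 2-fold for all 46. The 4 genes whose interval reached beyond 1.5-fold were Ndufa1, Ndufa2, Ndufb3 and Ndufs6. In Ndufa1, Ndufa2 and Ndufs6 control replicate 1 lay furthest from the other controls. The fitted values depended on single libraries for most genes. Without control replicate 1 the fold change (log2) turned its sign in 14 of the 46 genes, and in 30 it turned or moved by over 1.5 times. This number was 16, 23 and 9 when itaconate replicate 1, 2 or 3 was left out, and 9 and 21 when control replicate 2 or 3 was. In 11 genes it stayed within 1.5 times whichever library was left out, among them Ndufa4, Ndufa10, Ndufa11, Ndufaf1, Ndufaf5, Ndufaf6, Ndufaf8, Ndufs8, Ndufv1 and Ndufv3.

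**Figure D1:**
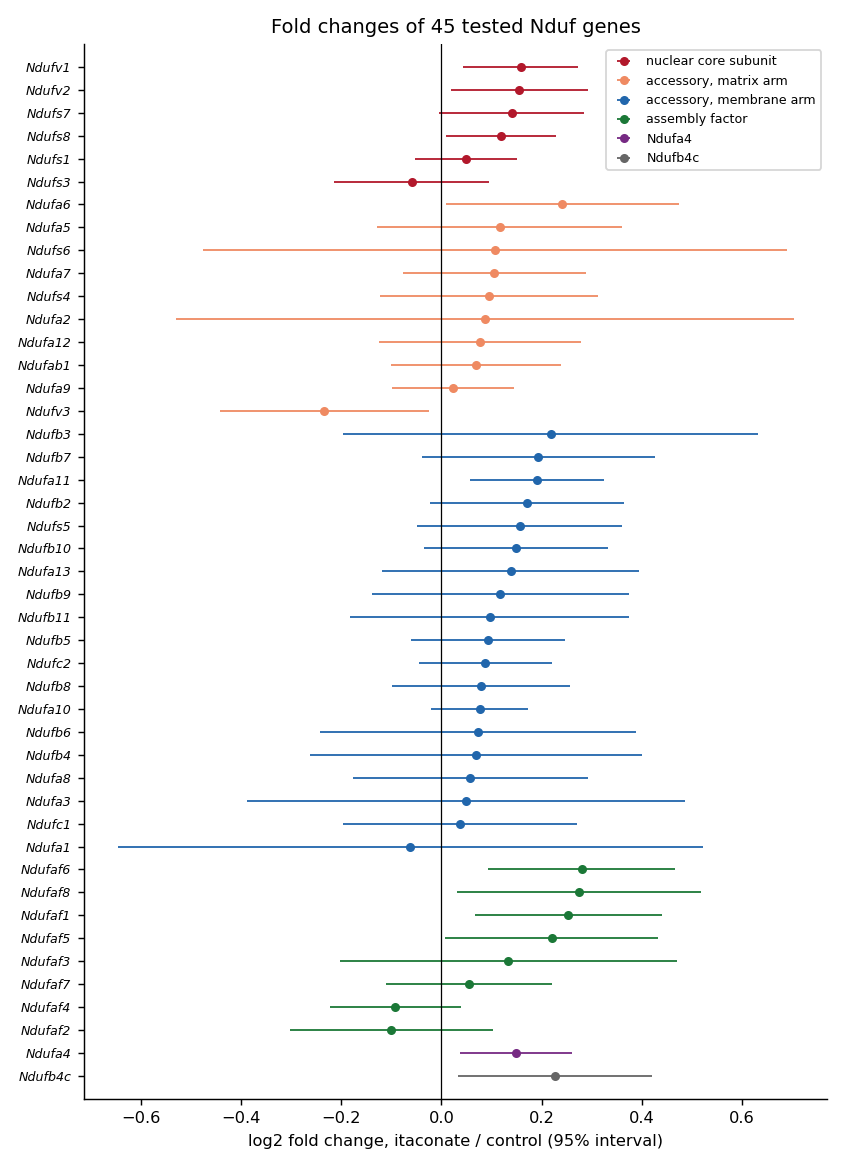
Fitted log2 fold changes (itaconate over control, 3 libraries each) of 45 of the 46 tested Nduf genes with 95% intervals, coloured by role and ordered by size within each role. Points of 40 of the 45 genes lie right of 0, none of them had an adjusted p under 0.05, and the widest intervals are those of Ndufa2, Ndufa1 and Ndufs6.

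The nuclear core subunits carry the flavin and the iron-sulfur clusters of the matrix arm. Of the 7, 0 passed the test, 6 had a fold change above 0, and the median was 0.12 (log2). Ndufv1, which holds the flavin and binds NADH, had 117, 123 and 123 CPM with itaconate, against 102, 111 and 112 CPM in control. All 3 itaconate libraries lay above all 3 control libraries in CPM, and the groups overlapped in TPM. The log2 fold change was 0.16 ± 0.054 (SE), and the adjusted p was 0.0706, between 0.0181 and 0.697 over 16 other settings.

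Ndufv2, the iron-sulfur partner of Ndufv1, had 104, 116 and 111 CPM with itaconate and 90.4, 101 and 106 CPM in control. Itaconate replicate 1 lay below control replicate 3, so the groups overlapped, and the log2 fold change was 0.15 ± 0.064 (adjusted p 0.134), or 0.09 without control replicate 1. Ndufs1, the large subunit with several iron-sulfur clusters, had 139, 140 and 147 CPM with itaconate and 135, 137 and 140 CPM in control. Its groups overlapped by a narrow margin, and its log2 fold change of 0.05 ± 0.047 had an interval from -0.05 to 0.15, and it was 0.02 without itaconate replicate 3.

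Ndufs7 carries the last iron-sulfur cluster before ubiquinone. It had 79.2, 92.0 and 85.3 CPM with itaconate and 72.3, 77.1 and 83.1 CPM in control, with a log2 fold change of 0.14 ± 0.068 (adjusted p 0.205). The fold change was 0.09 without control replicate 1 and 0.09 without itaconate replicate 2. The lowest itaconate library lay below the highest control library.

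Ndufs8, which carries a pair of iron-sulfur clusters on the way to ubiquinone, had 90.2, 89.8 and 88.1 CPM with itaconate, against 81.6, 80.3 and 84.8 CPM in control. The groups did not overlap in CPM and did in TPM, and the log2 fold change was 0.12 ± 0.051 (adjusted p 0.151). Ndufs3, a core subunit without a cluster, was the exception in sign, with 62.2, 73.6 and 72.9 CPM with itaconate and 67.3, 75.2 and 75.1 CPM in control. Its lowest value was in itaconate replicate 1, its groups overlapped, and its log2 fold change of -0.06 ± 0.072 (adjusted p 0.663) changed sign to 0.02 without that library and was -0.11 without control replicate 1. Exons of Ndufs1 overlap those of Eef1b2, and exons of Ndufs3 those of Kbtbd4, on the other strand, and the strand setting of the counting is not given in the sources used here.

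Accessory subunits of the matrix arm surround the core without taking part in electron transfer. Of the 10, 0 passed the test, 9 had a fold change above 0, and the median was 0.09 (log2), or -0.02 without control replicate 1. Ndufv3, a small subunit at the tip of the matrix arm near the flavin, had the most negative fold change of the 46 genes. It had 41.4, 50.5 and 43.6 CPM with itaconate, against 46.1, 55.4 and 57.6 CPM in control. Itaconate replicate 2 lay above control replicate 1, so the groups overlapped.

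The log2 fold change of Ndufv3 was -0.23 ± 0.095 (adjusted p 0.139, between 0.0119 and 0.362 over 16 other settings, all of them negative). Without control replicate 1 it was -0.33 and Ndufv3 was the 1 member of the 46 that passed the test (adjusted p 0.0192), against 9.03% of all genes tested without that library. Since most Nduf mRNAs were low in control replicate 1, the level of Ndufv3 was also set against the median Nduf gene of the same library, a comparison chosen after its values were seen. The log2 CPM of Ndufv3 lay 0.26, 0.16 and 0.28 below that median in the itaconate libraries, and 0.02, 0.14 and 0.04 above it in the control libraries. All 3 itaconate libraries were below all 3 control libraries on this measure. Other Nduf genes were not set against that median, so a separation particular to Ndufv3 is not shown. On log2 TPM it lay 0.06, 0.03 and 0.14 below the median Nduf gene with itaconate, and 0.27, 0.19 and 0.18 above it in control.

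Ndufs4, an accessory subunit whose loss in mice causes a fatal disease of the brain, had 45.3, 43.6 and 47.7 CPM with itaconate and 35.3, 45.6 and 47.1 CPM in control. Control replicate 1 was the low library, and the log2 fold change was 0.09 ± 0.099 with all libraries and -0.03 without that one. Ndufab1, the mitochondrial acyl carrier protein, which sits in both arms of the complex, had 117, 134 and 126 CPM with itaconate and 106, 121 and 132 CPM in control. Its groups overlapped, and the log2 fold change was 0.07 ± 0.077 (adjusted p 0.636), or -0.01 without control replicate 1.

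In TPM, Ndufab1 had 316, 368 and 339 with itaconate, against 190, 390 and 365 in control. Control replicate 1 was far lower than the other 5 on this scale, and the authors' estimated mean transcript length of Ndufab1 was 966 bases in that library and between 624 and 694 bases in the others. Ndufa6, Ndufa2 and Ndufs6 were chosen after their values were seen. Ndufa6, which binds the acyl carrier protein, had 44.9, 50.4 and 45.0 CPM with itaconate and 33.3, 45.9 and 39.8 CPM in control (log2 fold change 0.24 ± 0.10, adjusted p 0.171). Ndufs6, a zinc-binding subunit, had 43.0, 49.9 and 46.3 CPM with itaconate and 30.1, 46.8 and 52.1 CPM in control, and Ndufa2 had 40.9, 48.4 and 48.2 CPM with itaconate and 29.9, 48.1 and 51.6 CPM in control. In all 3 genes control replicate 1 was the lowest of the 6 libraries, and the fold changes without it were 0.13 for Ndufa6, -0.10 for Ndufs6 and -0.13 for Ndufa2 on the log2 scale. The other 4, Ndufa5, Ndufa7, Ndufa9 and Ndufa12, had overlapping groups and log2 fold changes between 0.02 and 0.12. Without control replicate 1 these were 0.00 for Ndufa5, 0.02 for Ndufa7, -0.02 for Ndufa9 and -0.03 for Ndufa12.

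Accessory subunits of the membrane arm hold the proton-pumping core in place. Of the 19, 0 passed the test, 18 had a fold change above 0, and the median was 0.09 (log2), or 0.03 without control replicate 1. Ndufa11 is a membrane subunit on the side that faces complex III in supercomplexes. This gene was chosen after its values were seen, as the member of this class with the smallest adjusted p. It had 52.5, 57.3 and 54.1 CPM with itaconate, against 46.1, 47.3 and 50.2 CPM in control. The groups did not overlap, and the log2 fold change was 0.19 ± 0.062 (adjusted p 0.0613, between 0.0284 and 0.321 over 16 other settings). In TPM its values were 210, 215 and 210 with itaconate, against 204, 192 and 195 in control.

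Ndufa1, a small X-linked subunit that is essential for the activity of complex I, had 17.9, 22.4 and 24.3 CPM with itaconate and 15.6, 26.2 and 25.9 CPM in control. The lowest library of each group was its replicate 1, and the log2 fold change of -0.06 ± 0.24 had an interval from -0.65 to 0.52, and it was -0.27 without control replicate 1. Ndufa3 had 29.4, 37.0 and 39.1 CPM with itaconate and 27.8, 32.3 and 41.7 CPM in control, with a log2 fold change of 0.05 ± 0.18, or -0.08 without control replicate 1. Neither gene gave a stable sign over the settings tried. Ndufa10, chosen after its values were seen, varied least of all: it had 140, 139 and 141 CPM with itaconate and 131, 132 and 135 CPM in control. Its groups did not overlap in CPM and did in TPM. The log2 fold change was 0.08 ± 0.045 (adjusted p 0.311), or -0.03 with limma on log2(TPM + 1). The 14 membrane-arm subunits not described by library had log2 fold changes between 0.04 (Ndufc1) and 0.22 (Ndufb3), all with overlapping groups. Without control replicate 1 they lay between -0.06 and 0.09, and 6 of the 14 were below 0.

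No row named Ndufb1 was listed. A row named Ndufb1-ps, outside the rule and annotated in GENCODE M21 as a long non-coding RNA from a bidirectional promoter, had 27.8, 36.8 and 31.4 CPM with itaconate and 19.9, 31.8 and 34.4 CPM in control. Its log2 fold change was 0.15 ± 0.24 (adjusted p 0.754), and the low library was again control replicate 1. Whether reads of the Ndufb1 mRNA were counted in that row was not tested. The other row left out, Ndufab1-ps, had at most 0.172 CPM.

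**Figure D2:**
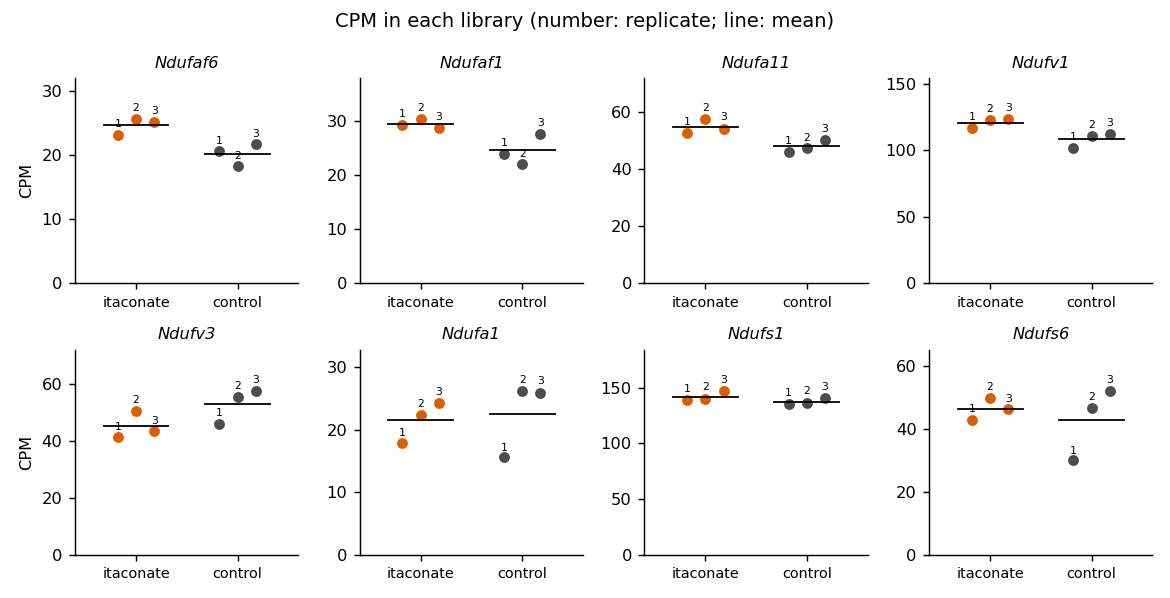
CPM of 8 Nduf genes in each library, itaconate left and control right in each panel, with the replicate number beside each point and a line at the group mean; each vertical axis starts at 0. Itaconate libraries lie above all control libraries for Ndufaf6, Ndufaf1, Ndufa11 and Ndufv1, groups overlap for Ndufv3, Ndufa1, Ndufs1 and Ndufs6, and control replicate 1 is the lowest library for Ndufa11, Ndufv1, Ndufa1, Ndufs1 and Ndufs6.

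The 3 largest positive fold changes were those of assembly factors. Of the 8 with Nduf names, 0 passed the test, 6 had a fold change above 0, and the median was 0.18 (log2), with 0.14 without control replicate 1 and 0.22 with effective-length offsets. Ndufaf6, needed early in assembly, had the largest fold change of all 46 genes. It had 23.2, 25.6 and 25.1 CPM with itaconate, against 20.6, 18.4 and 21.7 CPM in control. The groups did not overlap, and the log2 fold change was 0.28 ± 0.087, with an interval from 0.09 to 0.47. The adjusted p of 0.0505 lay next to the threshold, and over 16 other settings it ranged between 0.0215 and 0.412.

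Ndufaf1, part of the complex that builds the membrane arm, had 29.2, 30.3 and 28.7 CPM with itaconate, against 24.0, 22.1 and 27.6 CPM in control. The groups did not overlap, the log2 fold change was 0.25 ± 0.087, and the adjusted p was 0.0725, between 0.0236 and 0.352 over 16 other settings. Without control replicate 3, Ndufaf1 and Ndufaf6 passed the test together with Ndufa4 and Ndufb4c (4 of 46, 8.70%, against 11.2% of all genes in that fit). With no filter on low counts, Ndufaf1 and Ndufaf6 passed with Ndufa6, Ndufb7 and Ndufv3 (5 of 47, 10.6%, against 9.07% of all genes).

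Ndufaf8 and Ndufaf5 work as partners: Ndufaf5 hydroxylates an arginine of Ndufs7, and Ndufaf8 stabilises Ndufaf5. Ndufaf8 had 16.5, 19.6 and 20.5 CPM with itaconate and 13.7, 15.4 and 17.7 CPM in control, with a log2 fold change of 0.27 ± 0.11 (adjusted p 0.137). Itaconate replicate 1 lay below control replicate 3. Ndufaf5, chosen after its values were seen, had 16.4, 15.1 and 15.4 CPM with itaconate and 13.1, 12.4 and 14.5 CPM in control. Its groups did not overlap (log2 fold change 0.22 ± 0.099, adjusted p 0.171).

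Ndufaf2 and Ndufaf4 lay on the other side of 0. Ndufaf2, a relative of Ndufa12 that acts late in assembly, had 16.1, 16.8 and 16.6 CPM with itaconate and 16.7, 16.7 and 19.5 CPM in control (log2 fold change -0.10 ± 0.095, adjusted p 0.553). Ndufaf4, which works with Ndufaf3 on the part of the matrix arm next to the membrane, had 51.5, 49.2 and 52.5 CPM with itaconate and 56.1, 51.5 and 55.7 CPM in control (log2 fold change -0.09 ± 0.061, adjusted p 0.370). Both were negative in all 16 other settings, and their groups overlapped. Ndufaf3 had 7.42, 12.1 and 8.88 CPM with itaconate and 8.17, 8.94 and 8.70 CPM in control. Its log2 fold change of 0.13 ± 0.16 rested on itaconate replicate 2, without which it was -0.07, and its exons overlap those of Impdh2 on the other strand. Ndufaf7, a methyltransferase, had a log2 fold change of 0.05 ± 0.078, and its groups overlapped.

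Ndufa4 carries a complex I name but is known as a subunit of complex IV, cytochrome c oxidase. It had the highest level of the 46 genes per length, 421, 419 and 415 TPM with itaconate and 399, 392 and 435 TPM in control. In CPM it had 127, 132 and 129 with itaconate, against 111, 117 and 123 in control. The groups did not overlap in CPM and did in TPM, and the log2 fold change of the counts was 0.15 ± 0.052 (adjusted p 0.0785, between 0.0270 and 0.775 over 16 other settings). Its relative Ndufa4l2, known as a hypoxia-induced protein, was nearly unread, at 0.0495, 0.0555 and 0.0858 CPM with itaconate and 0, 0 and 0.0635 CPM in control. An expected count of 0 allows up to 3 counts, or between 0.0948 and 0.164 CPM in these libraries, so no difference was detectable at this depth.

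Ndufb4 was the structural subunit with the lowest listed level (mean 18.1 TPM), and part of its sequence is shared with a copy. It had 9.65, 9.21 and 11.8 CPM with itaconate and 8.84, 8.26 and 12.1 CPM in control (log2 fold change 0.07 ± 0.15, adjusted p 0.825, with no stable sign when 1 library was left out). The low listed level of Ndufb4 depends on how reads were divided with this copy, Ndufb4c, which was listed at a mean of 257 TPM. Ndufb4c is annotated as a processed pseudogene of 390 bases on chromosome 15, and all 390 are identical to the transcript of Ndufb4. It had 33.4, 37.0 and 33.7 CPM with itaconate and 25.6, 30.2 and 33.0 CPM in control, with a log2 fold change of 0.23 ± 0.090 (adjusted p 0.12), or 0.13 without control replicate 1. The sum of both rows, which does not depend on how reads were divided between them, was 43.0, 46.2 and 45.6 CPM with itaconate and 34.4, 38.5 and 45.1 CPM in control. In the sum the groups overlapped. Ndufa11b and Ndufs6b, annotated pseudogenes that share 94.8% and 96.6% of their bases with Ndufa11 and Ndufs6, were listed at 0 in all 6 libraries.

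The mRNAs of the structural subunits lay close together in level. Over 36 nuclear structural subunits the median was 153 TPM, and 32 of the 36 lay within 2-fold of it. As listed, the highest and the lowest differed 20.3-fold, with Ndufa3 (367 TPM) at the top. Ndufa3 had the shortest mean effective length of the 36 (114.8 bases), by which TPM divides. This length was 95.7 bases in control replicate 1 and 121.7 bases in control replicate 2. The level of Ndufb4 depends on the division of reads with Ndufb4c. Over the 35 other than Ndufb4 the difference was 6.42-fold, again with Ndufa3 at the top. Core subunits had a median of 146 TPM, between 78.8 TPM for Ndufs1 and 191 TPM for Ndufs7. Accessory subunits had medians of 164 TPM in the matrix arm and 150 TPM in the membrane arm. Assembly factors were lower, with a median of 35.5 TPM and a range from 11.0 TPM for Ndufaf3 to 49.1 TPM for Ndufaf6, so the highest assembly factor lay below the lowest core subunit. The median gene tested had 14.1 TPM.

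**Figure D3:**
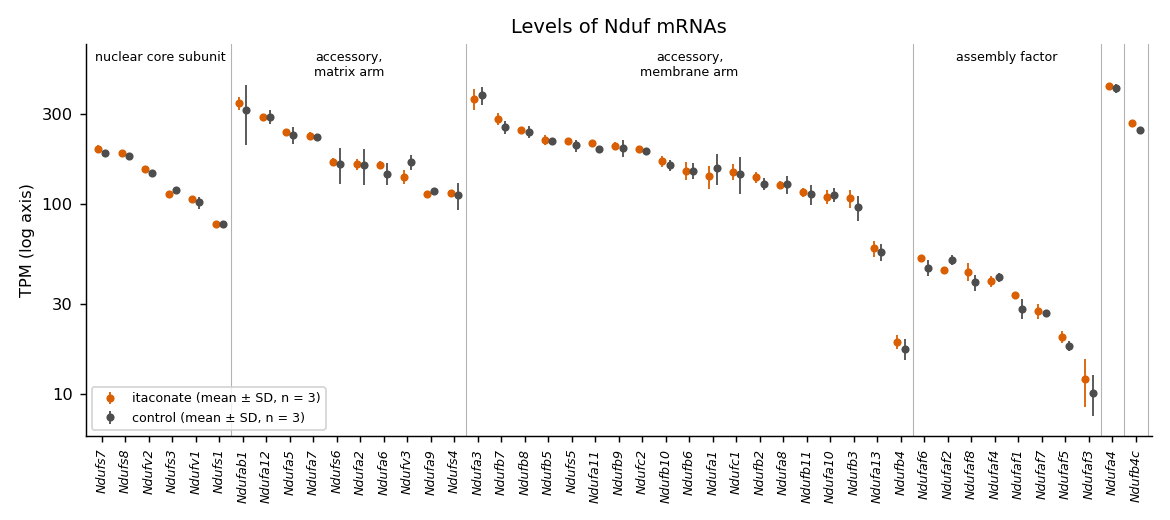
Mean TPM with SD of 45 of the 46 tested Nduf genes in itaconate (orange, left of each pair) and control libraries (grey), 3 libraries each, on a log axis, grouped by role. On average over all libraries, the 8 assembly factors lie at or below 49.1 TPM, and the core and accessory subunits other than Ndufb4 and Ndufa13 lie at or above 78.8 TPM.

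Replicate libraries differed more among controls than with itaconate for these genes. The median coefficient of variation of CPM was 6.80% over itaconate libraries and 11.3% over control libraries, against 7.0% and 7.02% over all genes. It was lowest for Ndufa10, at 0.820% with itaconate and 1.5% in control. It was highest for Ndufaf3 with itaconate (25.3%) and for Ndufa2 in control (27.1%).

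Control replicate 1 stood apart from the other libraries for these genes. Relative to the mean of the 3 controls, the 46 genes averaged 0.01, 0.18 and 0.14 (log2 CPM) in itaconate replicates 1 to 3, and -0.16, 0.02 and 0.14 in control replicates 1 to 3. The all-gene averages lay between -0.01 and 0.01. Itaconate replicate 1 thus lay at the level of control replicate 2, and itaconate replicate 3 at that of control replicate 3. Control replicate 1 was the lowest of all 6 libraries for 34 of the 46 genes (73.9%), against 22.2% of all genes, and it lay below the mean of the other controls for 43 of 46, by a median of 0.25 (log2), against 50.9% of all genes. The largest gaps were those of Ndufa2 (-0.74), Ndufa1 (-0.74) and Ndufs6 (-0.71), and the 3 genes above 0 were the assembly factors Ndufaf4, Ndufaf6 and Ndufaf7.

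Without control replicate 1, 27 of the 46 genes had a fold change above 0 (58.7%), against 49.8% of all genes, and the median was 0.04 (log2), against 0.00 over all genes. The assembly factors then had a median of 0.14 and the core subunits one of 0.09. The summed TPM of all Nduf genes was 6845, 7300 and 7222 in the itaconate libraries and 6388, 7071 and 7348 in the control libraries. These sums overlapped, and the highest of the 6 was a control library.

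**Figure D4:**
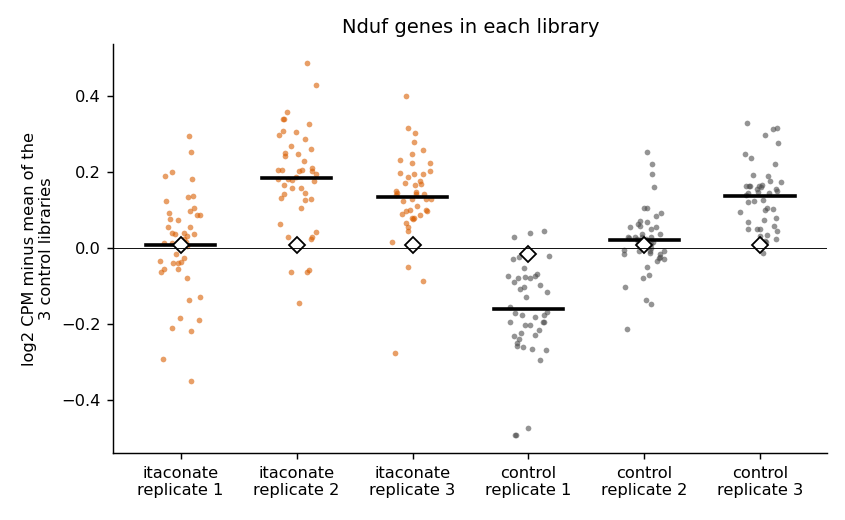
Log2 CPM of the 46 tested Nduf genes in each library, minus the mean of the 3 control libraries for the same gene; each point is a gene, each bar the mean of the 46 genes and each diamond the mean of all 12350 genes tested. Control replicate 1 lies lowest, with a mean of -0.16, and itaconate replicates 2 and 3 (0.18 and 0.14) lie near control replicate 3 (0.14).

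Effective length, the number of positions at which a fragment can start in a transcript, was examined as a measure that moves with these values. The median effective length of the 46 genes was 478 bases, against 2118 bases for all genes tested. Length minus effective length, which follows from the estimated fragment length, came to 259 bases for control replicate 1 and to 229 to 239 bases for the other 5 libraries. Among all 341 tested genes with an effective length under 300 bases, control replicate 1 lay below the other controls by a median of 0.27 (log2 CPM), and by 0.31 for the 8 Nduf genes of that class. From 300 to 500 bases the medians were -0.29 for 17 Nduf genes and -0.16 for all 359 genes. From 500 to 1000 bases they were -0.18 for 11 Nduf genes and -0.12 for all 1477 genes. By these medians, short genes were low in control replicate 1 in CPM, and Nduf genes of the same length were lower. In log2 TPM the medians under 300 bases were -0.15 for the Nduf genes and -0.03 for all genes. From 300 to 500 bases they were -0.18 and -0.03, and from 500 to 1000 bases -0.05 and -0.06.

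Across the 46 genes, the deviation of control replicate 1 ran with log2 effective length at a Pearson r of 0.58 and a Spearman rho of 0.58 in CPM, and at 0.27 and 0.28 in TPM, which divides by effective length. These points share libraries and are no independent replicates. The fitted fold change did not follow length in the same way (r -0.03, rho -0.04 over the 46 genes), and without control replicate 1 it gave an r of 0.26 and a rho of 0.21. In the classes under 300 bases and from 300 to 500 bases, the median fold changes were 0.11 and 0.09 (log2) for the Nduf genes, against 0.11 and 0.10 for all genes of the same length. From 500 to 1000 bases and from 1000 to 2000 bases they were 0.14 and 0.12 for the Nduf genes, against 0.06 and 0.03 for all genes of that length. Without control replicate 1 the medians of the same 4 classes, short to long, were 0.01, -0.01, 0.09 and 0.07 for the Nduf genes, against -0.02, 0.04, 0.02 and 0.01 for all genes. The single gene above 2000 bases, Ndufs1, had 0.05, against -0.03 for all genes of that class. With effective-length offsets in the fit, the median of the 46 genes was 0.10, and 0 of them passed the test. The part of fragment length in the low values of control replicate 1 was not tested.

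**Figure D5:**
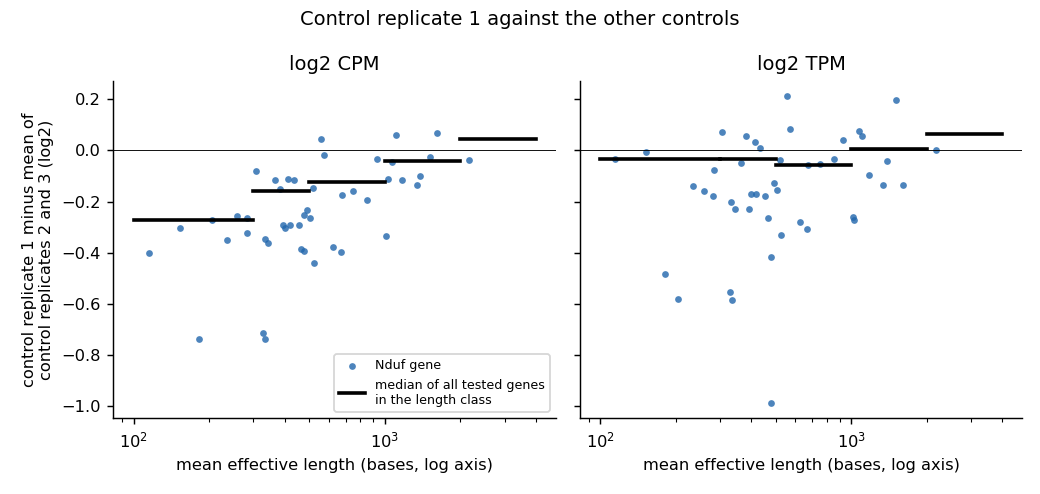
Control replicate 1 minus the mean of control replicates 2 and 3 for each of the 46 tested Nduf genes against mean effective length (bases, log axis), in log2 CPM on the left and log2 TPM on the right; bars are medians of all tested genes in a length class. In CPM, 43 of 46 points lie below 0 and short genes lie lowest, for Nduf genes and for all genes.

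Genes that act beside the Nduf genes were taken from lists of the same pathway. Mitochondrial DNA encodes the 7 core subunits of the membrane arm, and 0 of these 7 passed the test. Their fold changes lay between -0.47 and 0.76 (log2), with a median of -0.26, or -0.07 without control replicate 1. The largest was that of mt-Nd3, with 8.12, 10.3 and 13.0 CPM with itaconate and 5.42, 4.88 and 8.10 CPM in control (adjusted p 0.0537), which was chosen after its values were seen. It passed in 5 of 16 other settings (adjusted p from 4.85e-06 to 0.334), among them without control replicate 3 and without itaconate replicate 1. Of the 7, 3 had a fold change above 0. On the other side, mt-Nd4l had 88.5, 72.0 and 87.9 CPM with itaconate and 110, 99.8 and 91.25 CPM in control. Its groups did not overlap (log2 fold change -0.27 ± 0.089, adjusted p 0.0771). This gene, also chosen after its values were seen, passed in 4 of 16 other settings (adjusted p from 0.000164 to 0.65). The summed CPM of the 7 was 6110, 5264 and 5521 with itaconate and 6949, 4345 and 5508 in control, while that of the 36 nuclear structural subunits was 2400, 2693 and 2598 with itaconate and 2150, 2446 and 2600 in control. In these sums control replicate 1 was thus the highest library for the mitochondrially encoded subunits and the lowest for the nuclear ones. Taken singly, mt-Nd1 and mt-Nd3 were not highest in that library, and the other mitochondrially encoded subunits were.

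Assembly factors of complex I without an Nduf name, such as Ecsit and Acad9, which form a complex with Ndufaf1, gave 0 of 13 past the test and a median of -0.01. Of 12 tested regulators of nuclear respiratory genes, 1 rose and 0 fell, against 6.68% of all genes higher and 5.36% lower at the same threshold. Esrra, a nuclear receptor that drives many mitochondrial genes, had 45.1, 48.3 and 45.6 CPM with itaconate, against 31.6, 37.8 and 39.5 CPM in control. The groups did not overlap (log2 fold change 0.35 ± 0.081, adjusted p 0.0118). Without control replicate 1 the log2 fold change was 0.26, and the call held (adjusted p 0.035). Over 16 other settings the adjusted p ranged from 7.26e-05 to 0.167, and the call held in 9. It was lost without itaconate replicate 2 (adjusted p 0.0579), with effective-length offsets (0.0687) and with limma on log2(TPM + 1) (0.1265), among others. The factors whose motifs were searched above did not pass. Nrf1 had a log2 fold change of -0.06 ± 0.052 and Yy1 one of -0.09 ± 0.047. Gabpa had -0.19 ± 0.064 (adjusted p 0.0710, from 0.0134 to 0.373 over 16 other settings), and it passed in 3 of these, among them without itaconate replicate 1.

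Complex II feeds the same ubiquinone pool from succinate, and of its 8 tested subunits and assembly factors 1 rose and 0 fell, which with 12.0% of all genes called is near the share over all genes. Sdhb, the iron-sulfur subunit, had 167, 179 and 176 CPM with itaconate, against 145, 148 and 145 CPM in control. The groups lay far apart for their spread (log2 fold change 0.25 ± 0.047, adjusted p 0.00339), and the call held without any 1 library and with effective-length offsets (adjusted p 0.0286). It was lost with limma on log2(TPM + 1) (adjusted p 0.0967), on log2(TPM + 0.1) (0.0999) and with no filter (0.15), and with effective-length offsets and no control replicate 1 (0.0607), within a range of 0.000159 to 0.15 over 16 other settings. The other subunits did not pass, with log2 fold changes of 0.02 ± 0.045 for Sdha, which carries the flavin, 0.10 ± 0.058 for Sdhc and -0.10 ± 0.049 for Sdhd, the membrane anchors. Whether Sdhb differed from the Nduf genes was not tested.

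Of 5 other enzymes that pass electrons to ubiquinone, 2 fell and 0 rose, against 5.36% of all genes lower and 6.68% higher. Etfdh, which takes electrons from fatty acid oxidation, had 30.2, 33.5 and 28.4 CPM with itaconate, against 41.4, 38.7 and 35.6 CPM in control (log2 fold change -0.33 ± 0.081, adjusted p 0.0160). Gpd2, the mitochondrial glycerol-3-phosphate dehydrogenase, had 53.1, 53.8 and 50.9 CPM with itaconate, against 63.4, 64.2 and 58.5 CPM in control (log2 fold change -0.24 ± 0.060, adjusted p 0.0198). In both genes all itaconate libraries lay below all control libraries. Both calls were lost without control replicate 1 (adjusted p 0.0547 for Etfdh and 0.0529 for Gpd2), without control replicate 2 (0.0686 for Etfdh and 0.0932 for Gpd2), without itaconate replicate 3 (0.0861 for Etfdh and 0.0938 for Gpd2) and with effective-length offsets (0.0624 for Etfdh and 0.115 for Gpd2). Over all 16 other settings the adjusted p ranged from 0.000584 to 0.161 for Etfdh and from 0.00505 to 0.264 for Gpd2. Each call held in 7 of these 16.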

How the data were processed

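RNA-seq was done on 6 libraries of CD8+ T cells, 3 per group, grouped by the labels' treatment. Each library has a gene table deposited by the authors in the column layout of RSEM. Its expected counts, estimated by the authors and not normalised, were rounded to whole numbers before testing. TPM values, per the file headers, divide by effective length, which the authors deposited with the mean transcript length. Bowtie 0.12.2 and the builds mm8 and mm10 appear in the submitters' processing notes, with no roles. The sources used here do not give the annotation release, the strand setting or any trimming. Positions and gene classes come from GENCODE M21 (GRCm38), which held 99.83% of the gene identifiers.

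Itaconate was compared with control by edgeR 4.0.16 in R 4.3.3 (quasi-likelihood, two-sided, robust, TMM), after edgeR's filter (minimum count 10, total 15), which kept 12350 genes. Adjusted p-values are Benjamini-Hochberg over these genes with 0.05 as the threshold, and are from edgeR where no tool is named. The members, lists and tests were chosen with earlier results of these data known. Alternatives were DESeq2 1.42.0, DESeq2 size factors, no filter, limma 3.58.1 on log2(TPM + 1) or log2(TPM + 0.1) with and without a filter of 1 TPM in 3 libraries, effective-length offsets, a replicate block, and each library left out.

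Genes were named by a rule: the 3 largest and 3 smallest fold changes with a mean of at least 10 CPM, the core subunits and 6 others by name, the highest and lowest TPM of each role, and from pathway lists each called gene and the succinate dehydrogenase subunits. Others are said to be chosen after their values were seen. A core subunit is counted in the totals and medians and is otherwise not reported here. Of the 49 genes, 11 had counts further than 0.001 from a whole number, which come from reads shared between genes, and 19 had exons that overlap another gene. Intervals from a count of 0 cover counting error only. Replicate pairs gave chi-square values of 4.84 to 16.9 per gene, so no library looked like a copy of another.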

Additional observations from a re-analysis of the deposited data

How the results depend on the processing

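Of the Nduf genes 0 passed the test, and 0 also passed with DESeq2, DESeq2 size factors, effective-length offsets and limma on TPM. With no expression filter 5 passed, 4 higher and 1 lower. Leaving out 1 library gave between 0 and 4 (0 to 4 higher, 0 to 1 lower): 4 without control replicate 3 and 1 without control replicate 1. Over all genes 1487 passed, against 559 with effective-length offsets, 294 with limma on log2(TPM + 1), 272 on log2(TPM + 0.1), 35 with limma and no filter, 326 with effective-length offsets and no control replicate 1, and between 726 and 1400 without 1 library (lowest when control replicate 2 was left out, then 835 for itaconate replicate 3 and 896 for itaconate replicate 2). Of these calls 55.5% were higher with itaconate, against 37.8% with limma on log2(TPM + 1). Deviations of same-numbered libraries correlated at 0.11, 0.03 and 0.00, and those of differently numbered libraries at values from -0.093 to 0.066. Itaconate replicate 2 correlated best with control replicate 3. Whether the replicate numbers pair the libraries was not tested. A replicate block gave 2419 genes (19.6% of those tested) and 11 Nduf genes, 10 higher and 1 lower, and with effective-length offsets 626 genes and 0 Nduf genes. Of 432 values over 27 named genes and 16 settings, 362 kept their direction and side of the threshold, 29 lost it, 14 passed only there and 27 changed sign, none of the 27 in a gene that passed. The log2 fold change of Ndufs1 became -0.0026 with limma on log2(TPM + 1), with and without filter, and -0.0027 with log2(TPM + 0.1). That of Ndufa3 became -0.063 with limma in all 3 forms, -0.0033 with effective-length offsets, -0.0036 with the block added, and -0.037 with them and no control replicate 1, where Ndufs4 had -0.048 and Ndufab1 -0.10. That of Sdha became -0.040 with limma on log2(TPM + 1), with and without filter, and -0.041 with log2(TPM + 0.1). Without 1 library the ranges were -0.113 to 0.0151 for Ndufs3, -0.273 to 0.0551 for Ndufa1, -0.0282 to 0.169 for Ndufs4, -0.0138 to 0.137 for Ndufab1, -0.0821 to 0.225 for Ndufa3, -0.0532 to 0.253 for Ndufb4, -0.0735 to 0.279 for Ndufaf3 and -0.00516 to 0.0379 for Sdha. The cause of these changes was not tested. Depth limits Ndufa4l2, read at a few counts per library at most.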
